A study of Mus musculus with 2 samples.

Results

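Natural antisense RNAs are transcripts made from the DNA strand opposite to another gene, so that the RNA and its sense partner run in opposite directions. Some start close to the start of a protein-coding gene and point away from it, while others lie inside a coding gene or meet it end to end. For a small number of them, such as the RNA beside the cardiac regulator Hand2, work in mice has tied transcription of the antisense locus to the development of the heart, but most have no described role.

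The genes described here were chosen by their annotation and their level in these same libraries. A gene was taken when it had a transcript of the antisense class and no protein-coding transcript, and when it reached 1 TPM or more in both libraries. TPM, the unit of level used here, corrects a gene's reads for its length and for the depth of the library. Values come from the deposited tables with the column names of RSEM (RSEM-style) unless a separate quantification of the same libraries (kallisto-style) is named. Of 3088 genes with that annotation, 112 were kept, which is 3.63% of them and 0.897% of the 12487 genes of any class at this level. Mhrt and Airn also met the rule but were set aside with Kcnq1ot1 and Nespas, which did not reach the level. Because level was part of the rule, the levels below are a description and carry no test.

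RNA came from whole heart of male B6CASTF1/J mice aged 14 days, an F1 cross between C57BL/6J and CAST/EiJ, and was sequenced as total RNA in 2 libraries, each made from 300 ng. Both libraries, called biological replicates 1 and 2 in the labels, formed 1 group with no treatment and no control, so no conditions were compared. The labels mention 3 males and give both libraries the same donor label, and whether animals were pooled is not stated. Each library was taken as 1 sample, and errors are SDs over the libraries (n = 2), which may be technical in part.

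Replicate 1 held 39130835 expected counts in annotated genes and replicate 2 held 46144834. Heart muscle markers were abundant: the 10 cardiomyocyte markers summed to 44068 TPM in replicate 1 and 41647 TPM in replicate 2, and all 10 passed 1 TPM in both. The libraries differed in other cell markers. All 8 T cell markers were lower in replicate 1, where they summed to 1.72 TPM, than in replicate 2, where they summed to 44.1 TPM (single markers between 0.02 and 0.50 TPM in replicate 1 and between 1.31 and 8.71 TPM in replicate 2), and all 7 thymus markers were likewise lower in replicate 1 (sums of 4.11 and 45.5 TPM in replicates 1 and 2). Atrial markers summed to 1625 TPM in replicate 1 and 513 TPM in replicate 2, with 5 of 6 higher in replicate 1. In bulk tissue, fewer cells of a type and less RNA per cell cannot be told apart.

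Most of the 112 genes have no descriptive name: 49 carry a predicted-gene symbol (Gm with a number), 37 carry a RIKEN clone symbol and 24 have a given name, most of them the name of a neighbouring gene followed by os, for opposite strand. GENCODE M21 gives 90 of them the gene type antisense and 22 the type processed transcript. Their median was 2.5 annotated transcripts and 1216 bases of gene length in the table of replicate 1. A total of 37 had a single transcript, and 7 consisted of a single exon. By symbol, 81 of the 112 were found in RefSeq, of which 80 are noncoding RNAs there and 1, Gm10138, is a pseudogene.

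The start regions of 4 genes are shown because in 3 of them the start of the antisense gene and that of the neighbouring coding gene lie inside the same 300 bases, and the fourth holds a TATA box. The windows run from 250 bases before to 50 bases after the RefSeq start site (build GRCm38.p6), 5′ to 3′ on the strand of the antisense gene. In the windows of Hand2os1, 2810001G20Rik and Map2k3os, capitals mark the stretch from the start site of the coding gene on the opposite strand (Hand2, Cox10 and Map2k3) to that of the antisense gene, both included. In the window of Atcayos they mark the match to TATAAA.
Hand2os1, chr8:57320810-57321109, minus strand: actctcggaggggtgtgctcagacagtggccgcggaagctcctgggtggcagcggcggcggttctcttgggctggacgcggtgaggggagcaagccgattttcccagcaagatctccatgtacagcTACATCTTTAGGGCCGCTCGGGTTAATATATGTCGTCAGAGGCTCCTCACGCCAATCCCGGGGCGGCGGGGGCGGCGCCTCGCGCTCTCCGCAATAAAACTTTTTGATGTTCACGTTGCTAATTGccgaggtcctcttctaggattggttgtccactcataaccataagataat
2810001G20Rik, chr11:64079234-64079533, plus strand: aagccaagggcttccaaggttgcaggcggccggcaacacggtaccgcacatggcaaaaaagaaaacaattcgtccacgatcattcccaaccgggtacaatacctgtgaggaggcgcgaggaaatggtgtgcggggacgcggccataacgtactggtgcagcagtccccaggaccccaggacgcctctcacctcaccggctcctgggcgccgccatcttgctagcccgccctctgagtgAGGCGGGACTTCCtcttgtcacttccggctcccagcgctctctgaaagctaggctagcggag
Map2k3os, chr11:60931818-60932117, minus strand: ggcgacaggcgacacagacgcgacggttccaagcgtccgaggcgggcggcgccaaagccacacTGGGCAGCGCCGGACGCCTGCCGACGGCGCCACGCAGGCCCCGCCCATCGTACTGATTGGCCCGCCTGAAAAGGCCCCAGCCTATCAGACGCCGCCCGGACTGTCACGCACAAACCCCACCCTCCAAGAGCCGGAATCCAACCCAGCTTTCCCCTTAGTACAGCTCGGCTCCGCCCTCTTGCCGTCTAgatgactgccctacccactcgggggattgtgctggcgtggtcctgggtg
Atcayos, chr10:81194441-81194740, plus strand: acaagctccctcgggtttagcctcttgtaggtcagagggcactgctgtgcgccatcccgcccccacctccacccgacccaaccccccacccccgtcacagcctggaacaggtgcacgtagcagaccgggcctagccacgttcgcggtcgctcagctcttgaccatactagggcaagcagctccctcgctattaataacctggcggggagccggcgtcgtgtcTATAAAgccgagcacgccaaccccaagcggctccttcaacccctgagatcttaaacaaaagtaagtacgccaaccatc

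By these RefSeq starts, transcription of Hand2os1 and Hand2 begins 124 bases apart and runs in opposite directions, that of 2810001G20Rik and Cox10 begins 12 bases apart, and that of Map2k3os and Map2k3 begins 187 bases apart. The TATAAA match of Atcayos begins at base -28 relative to the start site. RefSeq windows were matched by symbol, chromosome and strand for 61 of the 112 genes, and the window nearest to the GENCODE start was used. TATAAA on either strand was found in 5 of the 61 windows (8.20%), against 13.6% of all 32851 RefSeq windows. CCAAT, on either strand, was in 27 (44.3%, against 37.4% of all windows), and GGGCGG, on either strand, was in 32 (52.5%, against 35.7%). The CArG box, the element bound by serum response factor, was in none of the 61 and in 1.63% of all windows. The median window of the antisense genes held 14 CG dinucleotides, against 7 over all windows. These are counts of letters in fixed windows; binding was not measured, and the shares were not tested.

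The levels were low as a class and rested on a few genes. Summed, the 112 genes took 713 TPM in replicate 1 and 718 TPM in replicate 2, or 0.0715 ± 0.000405% of all TPM. Their median was 2.40 TPM in replicate 1 and 2.27 TPM in replicate 2, while the 11421 protein-coding genes chosen by the same threshold had medians of 9.72 and 9.96 TPM, and the 141 lincRNA genes 2.87 and 2.81 TPM. The 5 highest took 39.4 ± 0.858% of the summed level and the 10 highest 52.4 ± 0.531%. With TPM rescaled to leave out mitochondrial and misc_RNA genes, the median of the means was 4.41 in place of 2.37 TPM. Only 16 genes had a mean of 10 TPM or more, and 47 lay below 2 TPM. Counts behind a gene ranged between 7 and 3694 in replicate 1 and between 5 and 5486 in replicate 2, with medians of 85 and 104.5 (20 genes had fewer than 30 counts in at least 1 library).

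**Figure D1:**
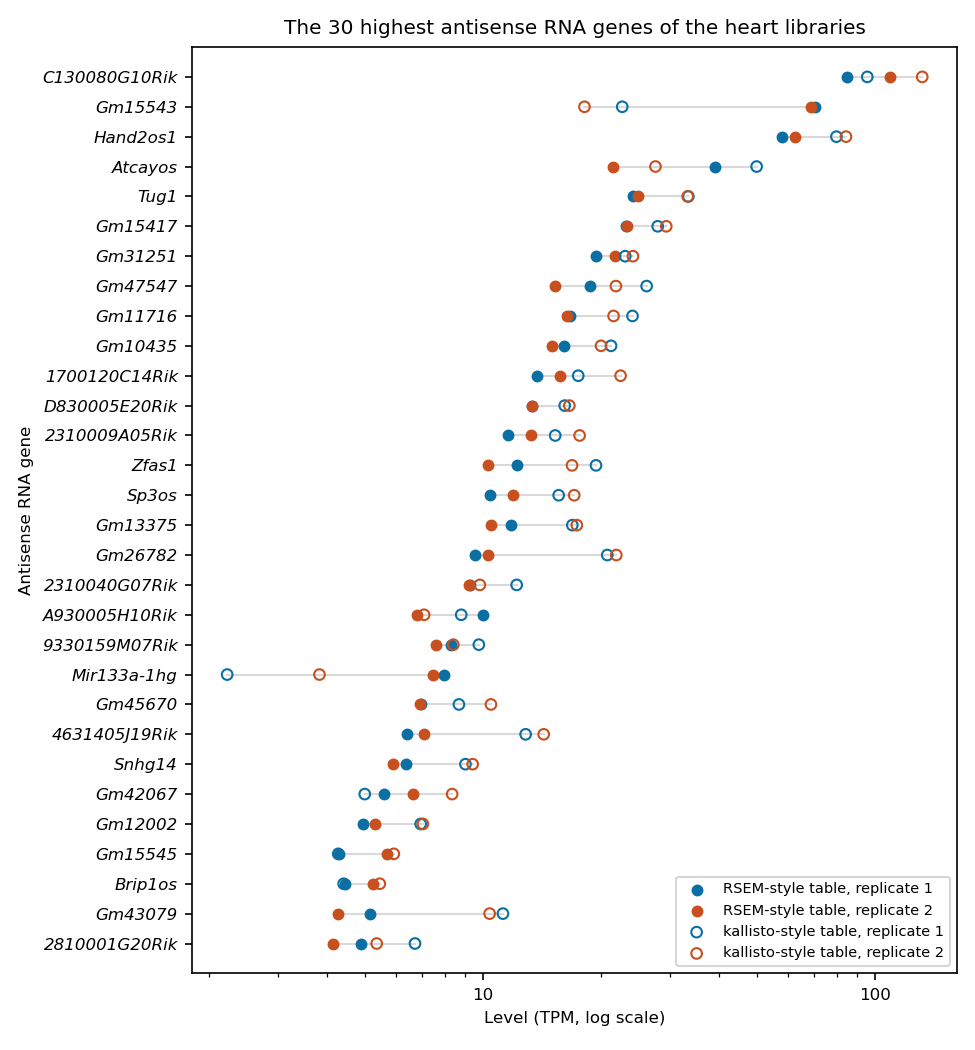
Level of the 30 highest antisense RNA genes in TPM (log axis), ordered by the mean of the RSEM-style tables, with filled points for the RSEM-style tables and open points for the kallisto-style tables, blue for replicate 1 and orange for replicate 2. C130080G10Rik, at 84.9 and 109 TPM, stands at the top; Gm15543 and Mir133a-1hg have open points far to the left of the filled ones, and the points of Atcayos are split by library.

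The highest gene was C130080G10Rik (chr2:114054335-114064868, plus strand, mm10), with 84.9 TPM in replicate 1 and 109 TPM in replicate 2 (97.2 ± 17.4 TPM, 3694 and 5486 counts). It starts 787 bases from the start of Actc1, the cardiac alpha-actin of the thin filament, and runs away from it without overlapping it. Actc1 had 7150 TPM in replicate 1 and 7351 TPM in replicate 2, so the antisense gene stood at 1.34% of its neighbour. In both libraries transcript C130080G10Rik-202 led, with 56.5% and 53.1% of the gene's TPM in replicates 1 and 2.

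A second antisense gene lies across the same locus. A530058N18Rik spans Actc1 on the opposite strand (chr2:114013563-114068324, plus strand), begins beyond the far end of the actin gene and shares exons with C130080G10Rik. It had 2.27 TPM in replicate 1 and 2.15 TPM in replicate 2, or 0.0305% of Actc1. Of its 31-base words, 70.0% also occur on the same strand in transcripts of other genes, most in C130080G10Rik, and for C130080G10Rik that share is 37.2%, most in A530058N18Rik, so the split of reads between the overlapping genes is uncertain. In A530058N18Rik, 93.1% and 92.4% of TPM (replicates 1 and 2) sat in a transcript of the processed-transcript class, not the antisense class.

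Hand2os1 (chr8:57281117-57324233, minus strand), also called Upperhand, came next but one, with 58.0 TPM in replicate 1 and 62.8 TPM in replicate 2 (60.4 ± 3.36 TPM). Its sense partner Hand2, a basic helix-loop-helix factor needed for formation of the right ventricle in mice, had 24.5 and 32.2 TPM in the same libraries. In TPM the antisense RNA was thus above Hand2 in each library, by 2.14-fold on average (log2 ratio 1.10 ± 0.20). On expected counts, not divided by length, it was below Hand2, with 1422 and 1953 counts against 1690 and 2660 in replicates 1 and 2. Transcripts of the antisense class held 73.6% of its TPM. Hand2os1 has 37 annotated transcripts in GENCODE, and the outermost of their starts lies 3250 bases downstream of the start of Hand2, so that in that annotation the genes overlap. In the RSEM-style tables Hand2os1-203 had the largest share, with 30.95% and 37.09% of the gene's TPM in replicates 1 and 2. The kallisto-style tables divided the gene otherwise, with 9.46 and 16.7 TPM for Hand2os1-203 but 16.1 and 3.62 TPM for Hand2os1-202.

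The myosin heavy chain locus carried 3 of the 112 genes besides Mhrt. Gm31251 (chr14:54979393-54991601, plus strand) lies inside Myh7, the slow myosin heavy chain that is the main form of the fetal mouse ventricle, and had 19.5 TPM in replicate 1 and 21.7 TPM in replicate 2. Myh7 had 981 and 822 TPM, so Gm31251 was at 2.28% of it. Exons of Myh7 lie opposite 41.9% of the exonic bases of Gm31251. The part of reads from the opposite strand in the level of Gm31251 was not tested. The other two genes were near the threshold. Gm29015, also inside Myh7, had 2.12 and 1.26 TPM from only 7 and 5 counts in replicates 1 and 2. Gm49130, which meets the end of Myh6, the fast adult form, had 1.08 and 1.48 TPM, against 10741 and 9520 TPM of Myh6. Mhrt, the known antisense RNA that starts between the genes, had 36.9 and 37.3 TPM.

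**Figure D2:**
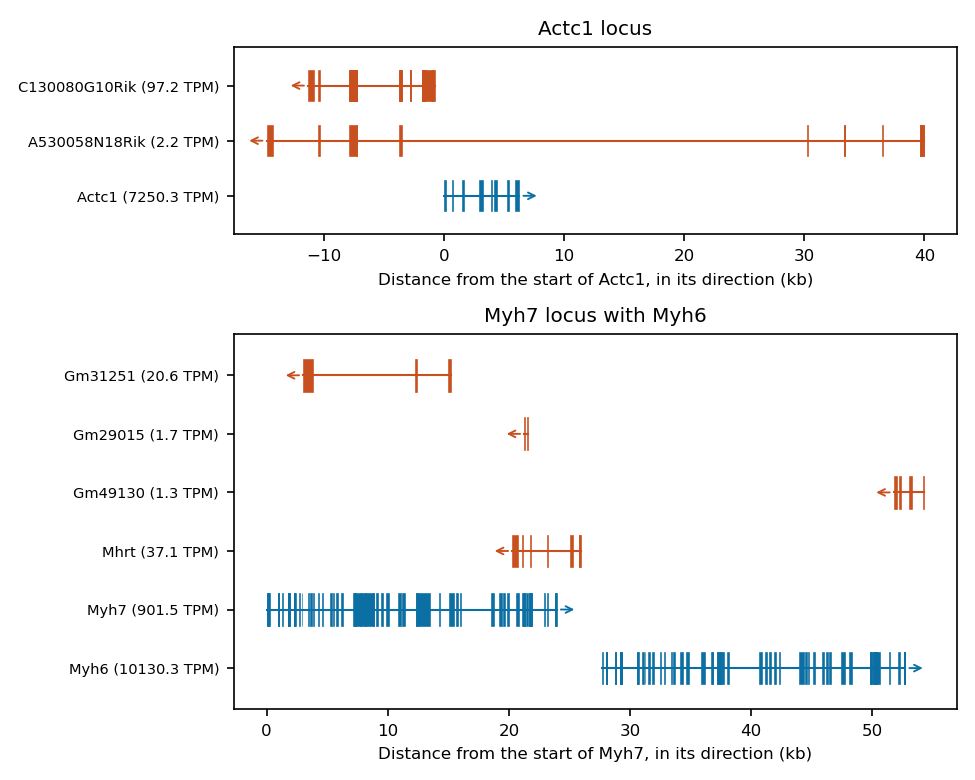
Antisense genes (orange) and sense genes (blue) at the Actc1 locus and the Myh7 and Myh6 locus, with thin lines for gene spans, boxes for exons of all annotated transcripts, arrows for the direction of transcription and mean TPM beside each name. The horizontal axis is the distance in kb from the start of Actc1 or Myh7. C130080G10Rik begins 0.787 kb before Actc1 and points away, A530058N18Rik runs across Actc1, and Gm31251 and Gm29015 lie inside Myh7.

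Another muscle gene also held an antisense member. D830005E20Rik lies inside Trdn, the gene of triadin of the calcium release complex, with 13.3 and 13.4 TPM, against 140 and 140 TPM of Trdn. Of a list of 22 contractile and calcium genes, all of them at 1 TPM or more, 8 had an annotated antisense gene and 4 had one among the 112, including Actc1, Myh6 and Myh7. Of 16 cardiac transcription factors, 15 were at 1 TPM or more, 5 had an annotated antisense gene and only Hand2 had one among the 112. Of 18 energy metabolism genes, 4 had an annotated antisense gene and none had one among the 112. Over all 11421 protein-coding genes at 1 TPM or more, 14.6% had an annotated antisense gene and 0.797% (91 genes) had one of the 112. The lists were small and the shares were not tested.

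Gm15543 (chr6:145182275-145187630, plus strand) had the second rank in the RSEM-style tables, with 70.3 TPM in replicate 1 and 68.9 TPM in replicate 2. It is a single transcript of 361 bases inside Casc1, which was nearly silent at 0.27 and 0.31 TPM. The kallisto-style tables gave Gm15543 only 22.7 and 18.2 TPM, from 60 and 56 estimated counts, against 564 and 662 expected counts in the RSEM-style tables. Its rank therefore rests on the table used.

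Atcayos (chr10:81194609-81210877, plus strand) was the fourth gene, with 39.1 TPM in replicate 1 and 21.4 TPM in replicate 2. Its sense partner Atcay, the neuronal gene of caytaxin, was at 0.02 and 0.05 TPM, from 2 and 6 counts. Dapk3, a protein kinase gene, ends 1412 bases before Atcayos on the same strand and had 13.0 and 12.0 TPM. Hence the antisense RNA was high where its partner was all but absent, and it was above the nearest gene upstream on its own strand in each library.

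The next ranks were close between the libraries. Tug1, a widely expressed noncoding RNA whose start overlaps that of Morc2a, had 24.2 TPM in replicate 1 and 24.9 TPM in replicate 2, against 10.01 and 9.49 TPM of Morc2a. Gm15417 overlaps the start of Zbtb7b, the gene of a zinc finger transcription factor, and had 23.2 and 23.3 TPM, against 11.9 and 7.56 TPM of Zbtb7b. Gm11716, inside the phosphatidylinositol transfer protein gene Pitpnc1, had 16.7 and 16.4 TPM. All of these exceeded 10 TPM in each library and each table. Gm47547, at 18.8 and 15.3 TPM, is less certain, because 77.7% of its 31-base words also occur in other transcripts on the same strand, most of them in AC132253.9, itself at 47.0 and 43.5 TPM in replicates 1 and 2.

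Among the 112, 7 genes (6.25%) contained an annotated microRNA or small RNA gene on the same strand within their span, compared with 41 of the 2976 other antisense genes (1.38%). Mir133a-1hg, the host of the muscle microRNAs Mir133a-1 and Mir1a-2 and located inside Mib1 on chromosome 18, had 7.95 TPM in replicate 1 and 7.46 TPM in replicate 2. The kallisto-style tables put it lower, at 2.22 and 3.82 TPM from 7 and 14 estimated counts. Zfas1, the host of the small nucleolar RNA Snord12, starts opposite the helicase gene Znfx1 and had 12.2 and 10.3 TPM, close to the 12.9 and 14.8 TPM of Znfx1 (log2 ratio -0.30, but 0.50 in the kallisto-style tables). Snhg14 (chr7:59307924-59975759, minus strand), the long imprinted transcript that runs against the ubiquitin ligase gene Ube3a, covers 208 small RNA genes. It had 6.37 and 5.89 TPM, against 54.1 and 54.7 TPM of Ube3a, and transcript Snhg14-209 held 66.8% and 70.7% of its TPM in replicates 1 and 2. The remaining hosts were 9330159M07Rik, 1810032O08Rik with Snord1a, Snord1b and Snord1c, Rab26os with Snord60, and Gm16008. Levels of the mature small RNAs were not measured here.

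A list of antisense RNAs at loci of developmental regulators was looked up in the same tables. Of 30 such RNAs listed, 26 were found by symbol, 20 fit the annotation and 4 were among the 112: Hand2os1, Foxo6os, Zeb2os and Tbx3os1. Over all 3088 antisense genes, 3.63% were among the 112, and the share of the list was not tested. The 16 others that fit the annotation lay between 0 and 0.655 TPM on average, with Hotairm1 highest and the antisense genes of the Dlx, Emx2, Pax6 and Six3 loci at or below 0.05 TPM. Zeb2os, inside the zinc finger repressor gene Zeb2, had 2.00 and 1.80 TPM in replicates 1 and 2, against 23.83 and 21.02 TPM of Zeb2. Tbx3os1, at the gene of the conduction system factor Tbx3, had 1.24 and 1.08 TPM, against 6.32 and 6.20 TPM of Tbx3. Prox1os, not on the list, at the homeobox gene Prox1, had 1.17 and 1.35 TPM, against 16.2 and 16.2 TPM of Prox1. Apart from Hand2os1, these RNAs were thus below their partner in each library. Foxo6os overlaps no coding gene in GENCODE M21, and its 1.65 and 1.77 TPM lay below the 2.34 and 2.52 TPM of Foxo6. Of 31 further named antisense RNAs of signalling, matrix and other loci, 14 were found, 11 fit the annotation and only Zfas1 was among the 112. Dnm3os, the host of microRNAs inside Dnm3, came next at 0.57 and 0.92 TPM.

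The other named genes were spread over the lower ranks. Sp3os had 10.4 TPM in replicate 1 and 11.9 TPM in replicate 2, against 18.3 and 18.0 TPM of the transcription factor gene Sp3. Brip1os (4.45 and 5.25 TPM) exceeded both Brip1, a DNA repair helicase gene at 0.35 and 0.56 TPM, and Ints2, the coding gene it contains, at 1.86 and 2.54 TPM. Hectd2os (3.25 and 5.43 TPM) exceeded Hectd2, a ubiquitin ligase gene at 0.98 and 0.80 TPM, and Rab26os (2.79 and 2.10 TPM) exceeded Rab26, a secretory vesicle GTPase gene at 0.15 and 0.14 TPM. By the kallisto-style tables Rab26os was below Rab26 (log2 ratio -0.58 in place of 3.36). By TPM of the RSEM-style tables the RNA of these 3 genes, like that of Atcayos and Hand2os1, was above the gene whose name it bears in each library.

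The opposite held for a larger group. Rab10os had 4.56 and 3.88 TPM in replicates 1 and 2, against 48.1 and 48.4 TPM of the GTPase gene Rab10, and Map2k3os had 2.25 and 2.38 TPM, against 31.9 and 29.2 TPM of the kinase gene Map2k3. Uckl1os, N4bp2os and Zbtb11os1 were also below their partners, with log2 ratios of -2.97, -2.37 and -1.50. In N4bp2os, 84.7% and 76.1% of TPM (replicates 1 and 2) sat in a transcript of the retained-intron class. N4bp2os was 1 of 5 genes among the 112 with under 50% of TPM in transcripts of the antisense class. Tmem147os (2.51 and 2.38 TPM) lay far below Tmem147 (96.8 and 99.7 TPM) but above Gapdhs, the sperm enzyme gene that it contains and that was listed at 0. Gt(ROSA)26Sor, the locus used for transgene insertion in mice, had 3.54 and 3.68 TPM. Trmt61b bears the name of a methyltransferase gene but is noncoding in both GENCODE M21 and RefSeq, and it had 1.33 and 1.56 TPM. Mypopos had 1.26 and 1.20 TPM, against 1.10 and 1.04 TPM of Mypop (log2 ratio 0.19); in the kallisto-style tables it had 4.19 and 3.54 TPM, against 1.22 and 1.17 TPM (log2 ratio 1.61). Ccdc142os, at 1.04 and 1.10 TPM, was the lowest of the 112 on average; its log2 ratio to its partner Gm42688 was 0.60, and -2.14 in the kallisto-style tables.

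A sense partner was assigned by position to 110 of the 112, as the coding gene on the opposite strand with the longest overlap or, failing that, the nearest start within 1 kb. The partners were 108 different genes. The antisense gene lay below its partner in both libraries in 76 cases, above it in both in 31, and was mixed in 3. The median log2 ratio, with 0.1 added to each TPM, was -1.97 in replicate 1 and -1.73 in replicate 2 (-1.82 over the mean ratios), which puts the partner 3.54-fold above the antisense gene. At least a 10-fold excess of the sense gene was seen in 33 pairs and of the antisense gene in 11. On expected counts not divided by length the median log2 ratio was -3.13. The ratio depends on the level threshold that chose the antisense genes and is given as a description.

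The ends of this range came from opposite kinds of loci. In the RSEM-style tables the highest ratios belonged to Atcayos (log2 ratio 7.76 ± 0.84), Gm15543 (7.48 ± 0.13), Gm47547 (7.41 ± 0.21), Sp3os (6.81 ± 0.13) and 9330159M07Rik (6.03 ± 0.51). Their partners by position (Atcay, Casc1, Dydc2, Gm11084 and Trim43c) were all below 0.4 TPM in each library. Dydc2 and Gm11084 were listed at 0 in both libraries. The ratios of Gm47547 and Sp3os are therefore set by their own level and the 0.1 added to each TPM. For Sp3os the gene given by its name, Sp3, turns the ratio to -0.70. The lowest ratios in the RSEM-style tables belonged to Gm49130 against Myh6 (-12.9 ± 0.42), A530058N18Rik against Actc1 (-11.6 ± 0.081), Gm4285 against Tpt1, an abundant translationally controlled protein gene (-9.88 ± 0.11), Gm29015 against Myh7 (-9.01 ± 0.32) and Gm10138 against Ivns1abp (-6.98 ± 0.31). There the partners were among the most abundant of the set, at 187 TPM or more on average. The order at both ends differed in the kallisto-style tables: Gm15543 had a ratio of 5.41, Gm49130 one of -10.06, A530058N18Rik one of -10.37 and Gm4285 one of -10.19, while Gm29015 was listed at 0.

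**Figure D3:**
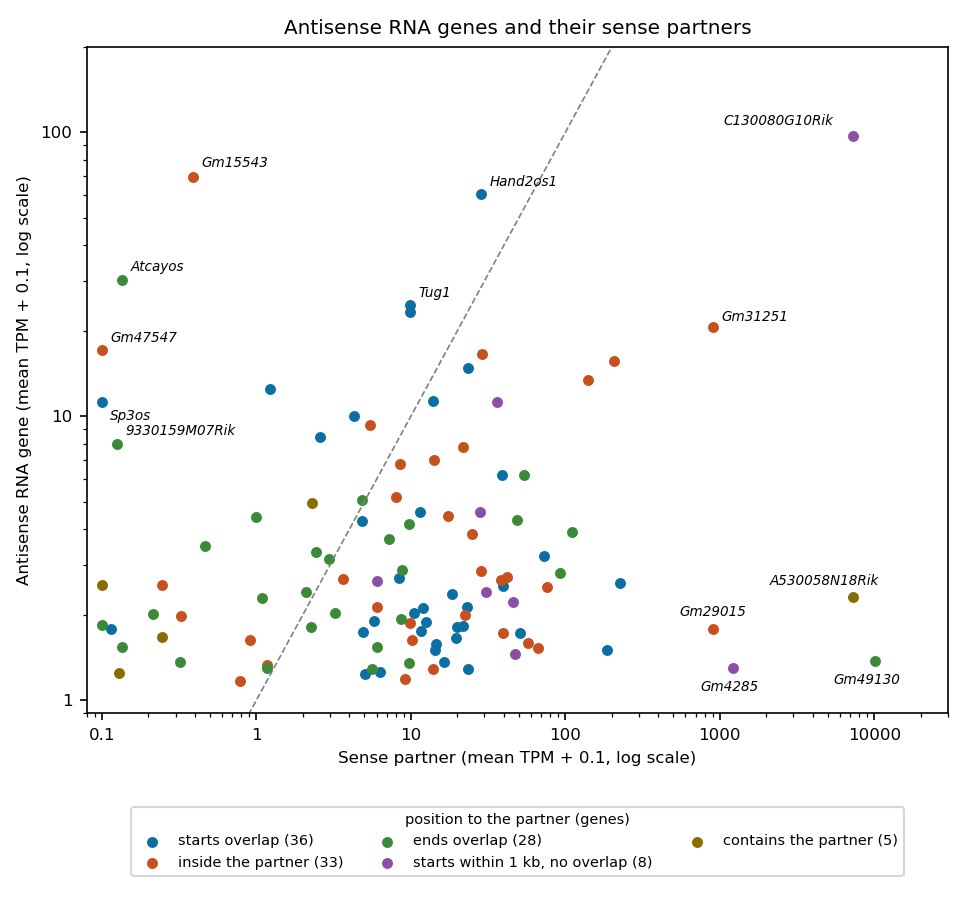
Mean TPM of each antisense RNA gene against that of its sense partner by position, both with 0.1 added and on log axes, coloured by position (110 pairs); the dashed line marks equal levels. Hand2os1 and Tug1 lie just above the line, Gm15543, Atcayos and Gm47547 far above it at the left, and C130080G10Rik, Gm31251 and Gm49130 far below it at the right.

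By position, 36 of the 112 overlapped the start of the partner (32.1%), 33 lay inside it (29.5%), 28 met it end to end with overlap (25.0%), 8 started within 1 kb of its start without overlap, 5 contained it and 2 had none. Among the 2976 other antisense genes, 20.8% overlapped the start, 54.2% lay inside the partner and 14.1% met it at the ends. Members that started within 1 kb without overlap all lay below their partner (8 of 8, median log2 ratio -4.02), whereas 4 of the 5 that contained their partner were above it. Of the 28 that met at the ends, 11 were above and 14 below. Partners of the 112 reached 1 TPM in both libraries in 81.5% of cases, against 63.5% of the coding genes paired only with antisense genes outside the 112 and 51.9% of all coding genes. These shares describe the pairs, with no test.

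Starts that point away from a coding start within 1 kb were found in 20 of the 112 (17.9%) and in 197 of the 2976 others (6.62%). The distance between the starts ranged from 3 to 787 bases, with a median of 161.5 bases. Of the 20 coding genes on the other side, 19 were at 1 TPM or more in both libraries, and only Brip1os was above its divergent neighbour. 2810001G20Rik, 16 bases from Cox10, the gene of a heme A synthesis enzyme, had 4.88 TPM in replicate 1 and 4.14 TPM in replicate 2, against 29.5 and 26.8 TPM of Cox10. Gt(ROSA)26Sor begins 32 bases from Setd5, and Tmem147os 39 bases from Tmem147. Gm4285 begins 129 bases from Tpt1, where the levels were 1.14 and 1.26 TPM of Gm4285, against 1233 and 1215 TPM of Tpt1. When any annotated transcript start was allowed, chosen after seeing the data, the counts were 55 of the 112 and 17.0% of the others.

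Overlap of exons with the partner bears on how far reads could be shared across strands. In 35 genes no exonic base was overlapped by the partner, the median overlap was 6.93% of exonic bases, and 8 genes had 50% or more. In those 8 the antisense level was between 0.187% and 223% of the sense level, with a median of 27.9%. All exonic bases of Gm11175 lie opposite exons of Jund, the gene of an AP-1 subunit, and it had 1.60 TPM in replicate 1 and 1.25 TPM in replicate 2, against 66.7 and 66.3 TPM of Jund. A630072M18Rik, with 95.05% of its exonic bases opposite Rsbn1l, had 1.97 and 2.10 TPM, against 6.13 and 5.82 TPM of Rsbn1l. Both antisense genes were thus below their partner in each library. The labels name spike-ins for stranded libraries, but the strand setting of the counting is not given in the sources used here, and the part of reads from the opposite strand in the levels of overlapping genes was not tested.

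Sequence shared on the same strand affected few genes. In 55 of the 112 no 31-base word occurred in another gene's transcripts on the same strand, and 6 genes shared over 20% of their words: C130080G10Rik, Gm47547, 9330159M07Rik, Gm43079, A530058N18Rik and Gm16008. Gm43079 is the extreme, with 94.9% of its words found in Acad9, a mitochondrial dehydrogenase gene on the same strand at 22.5 TPM in replicate 1 and 19.2 TPM in replicate 2. Its own 5.14 and 4.26 TPM are uncertain for that reason, and it has no coding gene opposite to it.

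The kallisto-style tables ranked the 112 genes in a similar order (Spearman's rho 0.88 across these genes, which share their reads and are not replicates). They were mostly higher there: 92 genes were higher in the kallisto-style tables in both libraries, 9 were lower in both, and the median log2 ratio of RSEM-style over kallisto-style TPM was -0.36. Protein-coding genes at 1 TPM or more had a median of -0.26. Of the 112, 99 lay within 2-fold, and 106 also reached 1 TPM in both kallisto-style libraries. Taken by the kallisto-style tables alone, the same rule would have chosen 157 genes, 51 of them outside the 112.

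The tables disagreed in both directions, and the 4 largest RSEM-style excesses were in genes under 600 bases. The RSEM-style excess was largest for Gm11973 (2.21 and 1.26 TPM in replicates 1 and 2) and Gm29015, both listed at 0 in the kallisto-style tables. Next came Rab26os, whose 2.79 and 2.10 TPM stood against 0.21 and 0.18 TPM, followed by Gm15543 (3.42-fold) and Gm20457 (3.41-fold). In the other direction Gm49130 led, with 1.08 and 1.48 TPM in the RSEM-style tables, against 7.92 and 9.20 TPM in the kallisto-style tables, ahead of Mypopos (2.97-fold), A530058N18Rik (2.89-fold), Gm43079 (2.28-fold) and Gm13594 (2.18-fold). The log2 ratio spread between -1.19 and 4.15 among the 25 genes under 600 bases, between -2.66 and 1.77 among the 40 genes of 600 to 1300 bases, and between -1.53 and 0.47 among the 47 longer genes. The medians of these length classes were -0.30, -0.48 and -0.31. The cause of the disagreement was not tested.

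**Figure D4:**
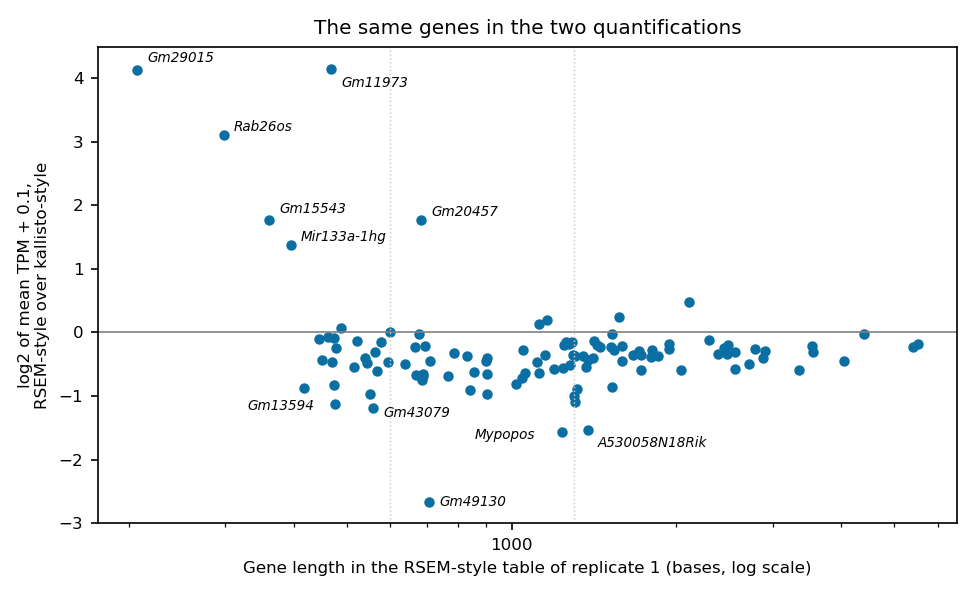
Log2 ratio of mean TPM (0.1 added) in the RSEM-style over the kallisto-style tables against gene length in bases (log axis), 1 point for each of the 112 genes; dotted lines mark 600 and 1300 bases. Gm29015, Gm11973 and Rab26os, all under 600 bases, stand above 3 log2 units, while Gm49130 is lowest at -2.66.

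The libraries agreed closely on most of the 112. Across genes the Pearson correlation of log2 TPM was 0.97, again a description over genes that share libraries, and the median absolute log2 ratio between the libraries was 0.16, against 0.14 over all genes tested. Differences between the libraries were tested with a 2-sided exact binomial test on expected counts scaled by TMM factors, with Benjamini-Hochberg adjustment over 16611 genes, of which 111 were among the 112 (Gm29015 had too few counts). The test compares these libraries, not conditions, and covers counting error only. The rule itself asked for 1 TPM in both libraries, which limits how far a low gene could differ. The test finds small ratios less often at low counts, and median counts of the 112 were 85 and 104.5 in replicates 1 and 2.

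At an adjusted p of 0.05 and a 2-fold difference, none of the 111 was called, where 3.2% of all genes tested were. At an adjusted p of 0.05 and any ratio 7 were called (4 higher in replicate 1 and 3 higher in replicate 2), or 6.31%, where 22.1% of all genes tested were. At an unadjusted p under 0.05 there were 13, or 11.7%, where 31.3% of all genes tested were. An exact test of edgeR with an assumed biological coefficient of variation of 0.1 or 0.2 also called none at 2-fold, where it called 2.34% and 1.38% of all genes. The test on the estimated counts of the kallisto-style tables called 2 of 106, Gm27252 (log2 ratio of replicate 1 over replicate 2 of 1.10) and 1810021B22Rik (-1.03), where it called 3% of all genes. Among 205 other antisense genes with enough counts, 7 were called at 2-fold (3.41%).

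Atcayos differed most firmly, with 1944 counts in replicate 1 and 1223 in replicate 2, a log2 ratio of 0.95 (95% interval 0.85 to 1.06; adjusted p = 2.71e-73, exact binomial test). The kallisto-style tables gave 49.96 and 27.56 TPM, the same direction. Atrial markers, of which 5 of 6 were higher in replicate 1, summed to 1625 and 513 TPM in replicates 1 and 2. Several other lists also had most of their markers higher in replicate 1. Higher in replicate 1 were also 6 of 6 fibroblast, 5 of 6 adipocyte, 5 of 6 erythroid and 8 of 10 cardiomyocyte markers. Fibroblast markers summed to 1129 and 965 TPM in replicates 1 and 2, and adipocyte markers to 53.7 and 33.3 TPM. The erythroid sums were 27517 and 26555 TPM, and the cardiomyocyte sums 44068 and 41647 TPM. Smooth muscle and pericyte markers had 5 of 6 higher in replicate 1, but summed to 371 TPM there and 391 TPM in replicate 2. Endothelial markers had 4 of 6 higher in replicate 1, with sums of 770 and 663 TPM in replicates 1 and 2. All macrophage, T cell, thymus and B cell markers were higher in replicate 2. The part of any cell type in the difference was not tested. Gm27252, inside Klf13, had 61 and 37 counts and a log2 ratio of 1.00 (0.39 to 1.64; adjusted p = 0.00531, exact binomial test). All of its RSEM-style TPM sat in a transcript of the lincRNA class. D430040D24Rik (log2 ratio 0.67) and Gm47547 (0.32) were also higher in replicate 1. In D430040D24Rik, 97.3% and 86.9% of TPM (replicates 1 and 2) sat in a transcript of the retained-intron class.

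C130080G10Rik was lower in replicate 1, with a log2 ratio of -0.29 (-0.35 to -0.22; adjusted p = 4.47e-19, exact binomial test). Actc1, with far more counts, differed by only -0.02 but was called as well (adjusted p = 0.00012, exact binomial test). Hand2os1 (-0.17) and Brip1os (-0.22) were lower in replicate 1 as well, and Hand2 moved the same way as Hand2os1, at -0.37. Hence 3 of the highest 4 genes differed between the libraries beyond counting error, each by less than 2-fold. Of all genes tested, 22.1% were called at any ratio. Deeply counted genes can be called at very small ratios, as Actc1 was.

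**Figure D5:**
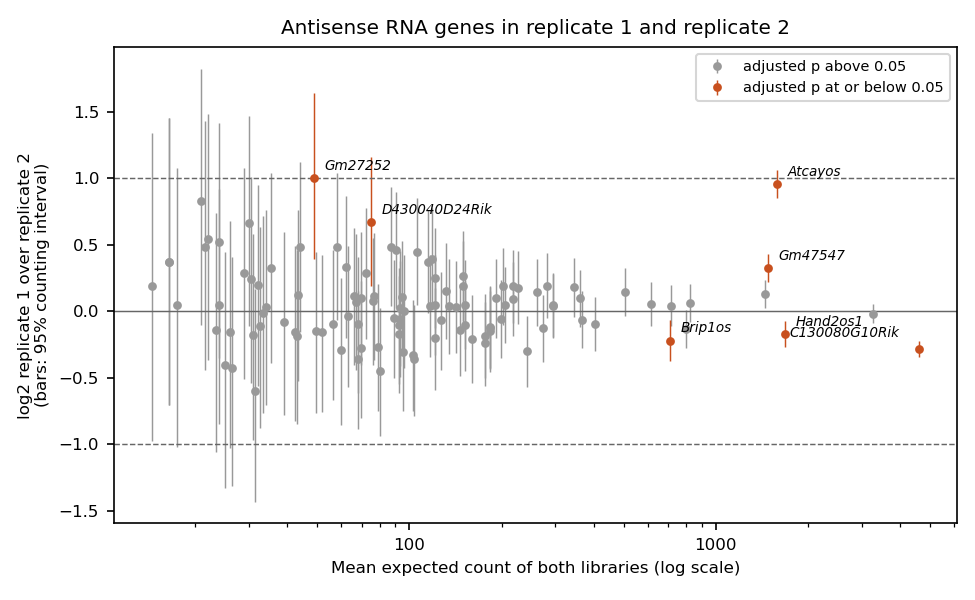
Log2 ratio of replicate 1 over replicate 2 with exact 95% counting intervals for 111 antisense RNA genes against the mean expected count (log axis); orange points have an adjusted p of 0.05 or less, and dashed lines mark 2-fold. Atcayos at 0.95 and Gm27252 at 1.00 lie at the upper dashed line, and C130080G10Rik at -0.29 is the most deeply counted.

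Genes near the threshold were separated by small amounts. The lowest genes inside it were Ccdc142os (1.04 TPM in replicate 1 and 1.10 TPM in replicate 2), Gm44949 (1.02 and 1.15 TPM) and C330011M18Rik (1.16 and 1.12 TPM). The highest antisense genes outside it were Gm20632 (1.69 and 0.94 TPM), Gm44710 (1.67 and 0.95 TPM) and Dgkeos (0.30 and 2.20 TPM), each of which passed 1 TPM in a single library, as 23 antisense genes did in all. At the other end, 1812 of the 2976 antisense genes outside the 112 had 0 counts in both libraries.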

How the data were processed

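Total RNA of heart was sequenced in 2 libraries. The authors deposited gene and transcript tables with the column names of RSEM, holding expected counts, TPM and the percent of a gene's TPM in each transcript per the file headers, and a kallisto-style table of estimated counts and TPM per transcript. Reads were assigned to mm10 with GENCODE M21, per the authors' readme; for tool versions and strand settings, the sources used here give nothing. Identifiers that are no annotated gene held 0.518% and 0.531% of expected counts in replicates 1 and 2 and were left out.

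The transcript class came from the kallisto-style identifiers and positions from GENCODE M21. Kallisto-style values were summed per gene. Ratios used log2(TPM + 0.1), which understates the ratios of low genes. The libraries were compared by a 2-sided exact binomial test on rounded expected counts with TMM factors of 0.984 and 1.02 (edgeR 4.0.16, R 4.3.3), over genes with 10 counts in each library or 20 in total, with Benjamini-Hochberg adjustment and Clopper-Pearson intervals; the script was tested on simulated data. DESeq2 1.42.0 gave alternative size factors. Words of 31 bases were compared with all M21 transcripts.

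Named genes were all members with a given name, the 10 highest, the 5 at each end of both ratios, members called between libraries and those at the threshold, except results that are not reported here; a few others, such as 2810001G20Rik, D830005E20Rik, Gm11175 and A630072M18Rik, were chosen after their values were seen. The members and lists were chosen with earlier results of these data known. Alternatives were another table, pseudocount, scaling, filter, distance, partner, and leaving out each library.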

Additional observations from a re-analysis of the deposited data

How the results depend on the processing

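The number of antisense genes at 1 TPM was 112 and stayed within 1.5 times under each alternative: 126 by posterior mean TPM, 157 by kallisto-style TPM, 87 when every transcript had to be of the antisense class, 106 without genes sharing over 20% of their words (added after seeing the data), and 120 to 127 with a single library. The median level of 2.37 TPM moved to 2.50 by posterior mean TPM, 3.22 by kallisto-style TPM and 4.41 when TPM were rescaled without mitochondrial and misc_RNA genes, and was 2.27 to 2.40 with a single library. The median log2 antisense over sense ratio of -1.82 moved to -3.13 on expected counts not divided by length and to -1.49 with a pseudocount of 1, and was -1.97 to -1.73 with a single library and -1.96 with partners by symbol (added after seeing the data); genes above their partner numbered 23 to 34 under all alternatives. By kallisto-style TPM the ratio of Zfas1 turned to 0.50, that of Rab26os to -0.58 and that of Ccdc142os to -2.14. Genes called between the libraries numbered 0, except 2 on kallisto-style counts. Divergent starts numbered 20, 17 within 500 bases, 20 within 2 kb and 55 with any transcript start (added after seeing the data). The causes were not tested. No paired analysis was possible because the libraries form a single group. A total of 20 genes rest on fewer than 30 counts in a library, where counting error alone is wide. Intervals cover counting error only. PCR copies are not independent molecules, so the intervals may be too narrow even for counting error.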
